A study of Homo sapiens with 15 samples.

Results

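The accessible chromatin of the KO1 clone was compared with that of wild-type cells in the 6 libraries of these groups, of 15 libraries in all. RPTEC are human renal proximal tubule epithelial cells immortalized with hTERT, and WT denotes the unedited line. KO1 is 1 single-cell clone in which CRISPR/Cas9 and a guide RNA to exon 3 of SETD2 left frameshifts on both alleles. WT and KO1 were grown in the same serum-containing medium with G418 and received no treatment, and each gave 3 ATAC-seq libraries. The 3 libraries of KO2, a second clone made with the same guide, and the 6 libraries of Rescue1 and Rescue2, clones of KO cells transduced with full-length SETD2, are used only where they add a measurement at regions chosen without them. Which KO clone the rescue clones came from is not given in the sources used here. Because KO1 is 1 clone, an effect of SETD2 loss and a property of that clone cannot be told apart within this comparison, and nothing in the labels says that the 3 libraries of a group came from separate cultures.

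In ATAC-seq, the Tn5 transposase cuts DNA that is not covered by nucleosomes, and a peak is a stretch where cuts exceed the local background. SETD2 is the methyltransferase that places H3K36me3 over the bodies of transcribed genes, a mark that recruits readers which help to keep gene bodies free of spurious initiation. SETD2 is lost in a share of clear cell renal carcinomas, and the study asked whether its loss opens chromatin and moves renal epithelial cells toward a mesenchymal state.

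Peaks of the 6 lists that shared at least 1 bp were merged into 298786 regions. A region was called gained when all 3 KO1 and no WT library had a peak in it and lost when the reverse held. By this rule 21408 regions were gained (7.16% of all regions) and 14464 were lost (4.84%), while 119348 had a peak in all 6 libraries and are called shared. The height of a peak is given throughout as its fold enrichment, which sets the pileup at its summit against the local background.

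The guide target and a few of the called regions are shown first, because the sequence content of the gained and lost regions is taken up again below. The guide lies on the plus strand at chr3:47122997-47123019 in hg38, inside exon 3 of SETD2, with the PAM in capitals.
SETD2 guide and PAM: tagaatatgatgaccctcgtCGG

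The next windows are 200 bp of the hg38 plus strand around the summit of a gained region. Capitals mark TGANTCA, the AP-1 motif bound by FOS and JUN dimers, or TGTTTAC, the motif of forkhead (FOX) factors, on either strand. The first window is from the gained region of highest mean rank within its libraries. The second is from a gained region of high rank with a FOX motif, in an intron of ERC1.
gained, chr4:116839903-116840102: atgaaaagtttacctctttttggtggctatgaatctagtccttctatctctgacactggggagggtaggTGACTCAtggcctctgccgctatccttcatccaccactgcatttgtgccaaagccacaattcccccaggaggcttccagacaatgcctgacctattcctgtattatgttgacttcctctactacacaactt
gained, chr12:1282059-1282258: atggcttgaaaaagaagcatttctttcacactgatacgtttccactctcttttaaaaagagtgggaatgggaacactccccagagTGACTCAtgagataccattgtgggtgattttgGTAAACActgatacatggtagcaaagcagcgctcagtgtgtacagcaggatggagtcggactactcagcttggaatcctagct

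In the next window, of a lost region, capitals mark CAGGTG, the E-box bound by the SNAI and ZEB repressors, on either strand. It is from an intronic lost region of high rank near COMTD1, chosen because it holds this E-box. The windows of lost regions of still higher rank at EFCAB6 and near QKI held an AP-1 motif and no CAGGTG.
lost, chr10:75251080-75251279: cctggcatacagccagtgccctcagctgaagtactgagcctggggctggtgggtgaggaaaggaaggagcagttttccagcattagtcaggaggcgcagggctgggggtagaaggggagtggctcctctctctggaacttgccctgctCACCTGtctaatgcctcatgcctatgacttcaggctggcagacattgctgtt

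The lists gave 204028 to 216023 peaks per KO1 library and 196969 to 212373 per WT library on the main chromosomes. KO1 libraries had 8942 more peaks on average, a difference within the spread of the libraries (exact permutation test, two-sided, p = 0.2, n = 3 and 3, where 0.1 is the smallest p possible). The lists hold no read counts, so sequencing depth is unknown; the background level solved from them was 0.80 to 0.95 in KO1 and 0.80 to 1.10 in WT. In bulk cells, a change in the share of cells with an open site and a change in how open it is in each cell cannot be told apart. All 8 renal epithelial markers, among them PAX2 and PAX8, had a promoter peak in all 3 WT libraries, and 7 had one in all 3 KO1 libraries. CDH1, the gene of the epithelial adhesion molecule E-cadherin, was the marker without a promoter peak in any KO1 library. Of 8 proximal tubule markers, ANPEP and GGT1 had promoter peaks in all 6 libraries and LRP2 in 5, but SLC34A1, SLC22A6, SLC22A8, CUBN and AQP1 had none in either group, so defining genes of this segment lacked an open promoter in these cultured cells. Of 14 markers of other nephron segments, endothelium and leukocytes, CD68 alone had a promoter peak in all 3 libraries of either group.

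The peak lists cannot show the SETD2 frameshifts, which change few bases. The SETD2 promoter was open in both groups, with fold enrichment 10.1, 9.78 and 10.9 in KO1 and 8.36, 11.1 and 8.71 in WT. These ranges overlapped. The SETD2 locus, the gene with 10 kb on each side, held 3 gained and no lost regions, and the 3 gained regions had peaks in all 3 KO2 libraries.

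Gained regions lay away from promoters. Their summits fell within 1000 bp of a transcription start in 8.98% of cases (95% Wilson interval 8.60 to 9.37, counting error only), against 13.3% of lost regions (12.7 to 13.8) and 23.7% of shared regions. Introns held 52.3% of gained regions and 53.3% of lost ones, and intergenic sequence held 34.7% and 29.7%. The median distance to the nearest start of a coding gene was 96712 bp for gained, 47082 bp for lost and 37506 bp for shared regions. Coding genes of 500 kb or more held 10.7% of the gained regions, 6.73% of the lost and 5.78% of the shared, whereas genes of 100 kb or more held like shares, 33.4%, 33.6% and 32%. Position within gene bodies was read for the 8434 gained regions that lay in exactly 1 coding gene and outside promoters, so gene starts were left out. Of 4 stretches of equal length from start to end, the first held 23.6% of them, and the next ones 25.3%, 26% and 25%. Shared regions chosen in the same way gave 25%, 26.2%, 24.7% and 24.1%, and lost ones 26.2%, 27%, 24.6% and 22.1%. Both kinds of called region were lower and narrower than shared ones, an order that the call rule itself favours. The median fold enrichment was 6.13 in gained, 5.66 in lost and 8.97 in shared regions, and the median widths were 222, 186 and 382 bp. A shared region merges peaks of both groups, whereas a called region merges those of KO1 or WT alone. Low peaks are also more easily missed in every library of a group. How much of these differences goes beyond the rule was not tested.

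**Figure D1:**
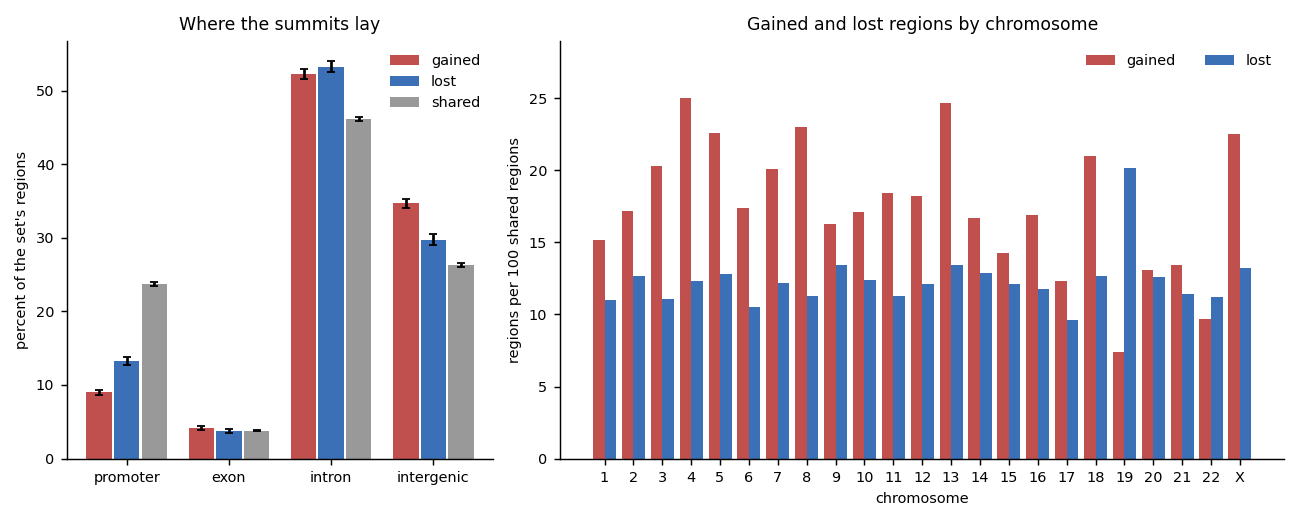
Left, percent of gained, lost and shared regions whose summit lay in each kind of sequence, with 95% Wilson intervals as bars; right, gained and lost regions per 100 shared regions on each chromosome. Promoters held 8.98% of gained and 23.7% of shared regions, and chromosome 19 had 20.2 lost and 7.42 gained regions per 100 shared.

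The 5 gained regions of highest rank had mean rank percentiles of 99.7 to 99.9 within the KO1 libraries, in which the tallest peak of all had a fold enrichment of 35 to 35.7. The highest lay at chr4:116839885-116840317, where KO1 gave fold enrichments of 23.1, 19.4 and 23.8. It was followed by a region at chr3:167406920-167407169, 26723 bp from the start of ZBBX, with 23.7, 18.9 and 25.4. The third lay in an intron of SPOCK3, a secreted proteoglycan gene, with 20.4, 23 and 21.2. The summits of the first 2 lay within 1000 bp of the start of an annotated transcript, whose type was not examined. The other 2 were intergenic, 886977 bp from the start of TMTC2 and 137394 bp from that of NDUFA4. All 5 had a peak in 3 of 3 KO2 and 6 of 6 rescue libraries, so these sites differed from WT in every other line.

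The lost regions of highest rank did not share one pattern across the other lines. Of the 5 highest, 4 are described. A region in an intron of EFCAB6 had fold enrichments of 20.7, 20.8 and 21.9 in WT, and one 34202 bp from the start of MPHOSPH6 had 21.1, 20 and 19.6. Both had peaks in all 3 KO2 libraries. The region at chr6:163924053-163924375, 509510 bp from the start of QKI, had 20.4, 20.6 and 20.7 in WT and no peak in any KO2 or rescue library. The last lay 109506 bp from IFNE, on chromosome 9, inside the interval described below.

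Among starts of coding genes, 335 gained regions lay within 1000 bp of 308 genes and 540 lost regions within 1000 bp of 509 genes. The 10 gained promoters of highest rank were those of ELAVL2, GPR141, MS4A5, NDST4, SLITRK1, SLITRK6, CCDC178, VWA3B, C4orf50 and OLFM3. Several of these genes are known for roles in neurons: ELAVL2 encodes an RNA-binding protein, SLITRK1 and SLITRK6 are transmembrane proteins of synapses and OLFM3 is a secreted olfactomedin. The ELAVL2 promoter had fold enrichments of 18.3, 13.6 and 16.4 in KO1, and that of GPR141, an orphan G-protein-coupled receptor, had 15.2, 15.6 and 15.8. The NDST4 promoter, of a heparan sulfate sulfotransferase, had 12.7, 13 and 14.9. All but that of C4orf50 were open in all 3 KO2 libraries.

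The 10 lost promoters of highest rank were those of ZNF582, NEK10, DPP6, ZSCAN18, ZIK1, JAM3, ZNF549, MTMR8, NLRP2 and FAAH2. Of these, 5 lie on chromosome 19, and ZNF582, ZSCAN18, ZIK1 and ZNF549 encode zinc finger proteins. The ZNF582 promoter had fold enrichments of 16.9, 16.7 and 19 in WT, and the ZSCAN18 promoter had 14.7, 19 and 17.7. The promoters of all 4 zinc finger genes had peaks in 3 of 3 KO2 and 6 of 6 rescue libraries. JAM3, a junctional adhesion molecule, behaved otherwise: its promoter had 14.7, 16.2 and 16.1 in WT and no peak in any KO2 or rescue library. The promoters of MTMR8, a phosphatase of the myotubularin family, and FAAH2, a fatty acid amide hydrolase, had no peak in KO2 and one in all 6 rescue libraries.

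The coding loci with most gained regions were long genes. Of 20007 coding loci, the gene with 10 kb on each side, 6266 held a gained region (31.3%) and 6508 a lost one (32.5%). ROBO1, a receptor of SLIT guidance cues at chr3:78597239-79767998, held most, with 48 gained, no lost and 1 shared region. KO1 libraries had 72, 78 and 75 peaks across ROBO1 and WT libraries had 5, 6 and 3. KO2 libraries had 25, 30 and 30, so the other clone was open over part of the gene only. Inside ROBO1, many of the gained regions were absent from KO2, such as one at chr3:78728958-78729151 with fold enrichments of 12.8, 10.7 and 15.8 in KO1 and no peak in KO2.

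At the other 4 loci KO1 and KO2 stood closer together. DLG2, a synaptic scaffold of the PSD family, had 42 gained regions, with 128, 134 and 131 peaks in KO1, 57, 52 and 63 in WT and 129, 129 and 158 in KO2. LRP1B, a giant receptor of the LDL receptor family, had 33 gained regions, with 60, 69 and 74 peaks in KO1, 16 in each WT library and 63, 63 and 85 in KO2. TENM3, a teneurin adhesion protein, had 33 gained regions, with 55, 63 and 56 peaks in KO1 against 13, 14 and 15 in WT. EYS, an extracellular matrix protein of photoreceptors, had 32, with 57, 60 and 59 against 12, 12 and 11. The gap between KO1 and WT counts restates how these loci were chosen, whereas the KO2 counts were not used in the choice.

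The loci of most lost regions had fewer of them. DPP6, an auxiliary subunit of potassium channels, had 25 lost and no gained regions, with 6, 4 and 7 peaks in KO1 against 43, 38 and 40 in WT. KO2 was low there too, at 13, 11 and 10. PCSK5, a proprotein convertase, had 18 lost regions, with 24, 27 and 20 peaks against 57, 53 and 53. NTRK3, the receptor of neurotrophin-3, had 14, with 19, 17 and 14 peaks against 41, 45 and 43. TRAPPC9, a subunit of a vesicle tethering complex, had 15 lost and 1 gained region, with 32, 34 and 36 peaks against 62, 59 and 60. At each of these 4 loci all KO2 libraries also had fewer peaks than every WT library.

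**Figure D2:**
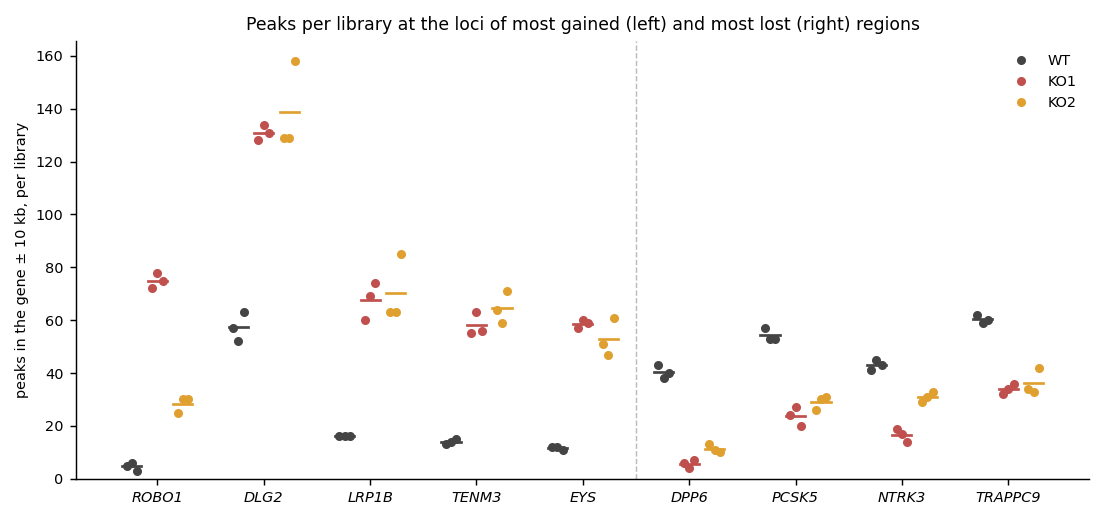
Peaks per library within each gene and 10 kb on both sides, for the 5 loci with most gained regions (left of the dashed line) and 4 of the 5 with most lost regions (right); points are libraries and bars are means of 3. The loci were chosen for the gap between KO1 and WT, and KO2, which the choice did not use, lies near KO1 at DLG2 but between the groups at ROBO1.

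Clustering was measured as runs, stretches of neighbouring regions that hold 5 or more gained regions and no WT peak, or 5 or more lost regions and no KO1 peak. There were 458 gained runs with 4632 regions, 21.6% of all gained regions, and 65 lost runs with 527 regions, 3.64% of all lost regions. Gained runs spanned a median of 254477 bp, and 244 of them held no coding gene. The run of most gained regions, at chr12:59940800-61994032, had 39 and covers TAFA2, a secreted chemokine-like protein. Others lay over CNTN5, a neural adhesion protein, with 31 gained regions, LRP1B with 30 and DCC, the netrin receptor, with 30. Of the 30 regions at DCC, KO2 libraries had 8, 7 and 11, whereas of the 31 at CNTN5 they had 26, 26 and 27. Across all gained runs, 73.8% ± 3.35 of the regions had a peak in a KO2 library (SD, n = 3), against 80.7% ± 4.80 of the gained regions outside runs.

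Lost runs lay over the kallikrein cluster at chr19:50818211-51097621, a set of serine protease genes, with 21 lost regions, over ADGRD1, an adhesion G-protein-coupled receptor, with 20, and over NELL1 and DPP6, with 16 each. KO2 libraries had 5, 4 and 6 of the 21 regions of the kallikrein run and 1, 0 and 1 of the 20 at ADGRD1. The NELL1 run was held more often in KO2, with 10 of 16 regions in each library. A run of 11 lost regions over NPHP4, a gene of the nephronophthisis family, had no peak in KO2.

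The run of most lost regions, 25, belonged to an interval of chromosome 9 in which KO1 had almost no peaks. Between the shared regions that flank it, the interval spans chr9:21507151-22026738, 519588 bp with 80 regions, and it holds MTAP, an enzyme of methionine salvage, and CDKN2A and CDKN2B, which encode inhibitors of cyclin-dependent kinases. KO1 libraries had a peak in 0, 3 and 1 of the 80 regions. WT libraries had one in 68, 57 and 57. KO2 libraries had 53, 57 and 55, and the 6 rescue libraries 51 to 60, so KO1 stood apart from every other line. In all, 41 of the regions were lost and none gained.

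Within this interval the missing peaks included strong ones. A region near the CDKN2A start, chr9:21974730-21975358, had fold enrichments of 10.4, 9.95 and 11.8 in WT and no peak in KO1, KO2 or rescue libraries. The region at the MTAP start had 10.8, 11.3 and 11.8 in WT, and a peak in KO1 library 2 alone, at 3.58. The region at the CDKN2B start had 8.81, 10.2 and 11.5 in WT and 4.61 in the same KO1 library. The other place with KO1 peaks was an intron of MTAP, at chr9:21831921-21832494, with 8.19 and 3.82 in libraries 2 and 3 against 8.40, 10.7 and 10.7 in WT. In the 150 kb to the left of the interval KO1 had 13, 16 and 16 summits and WT 16, 18 and 14, and in the 150 kb to the right KO1 had 26, 27 and 24 and WT 28, 24 and 26. These flanks did not separate the groups. The promoter peak of IFNA1, to the left of the interval, is among the highest rises given below. From peak lists, DNA that is absent and DNA that is closed cannot be told apart.

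**Figure D3:**
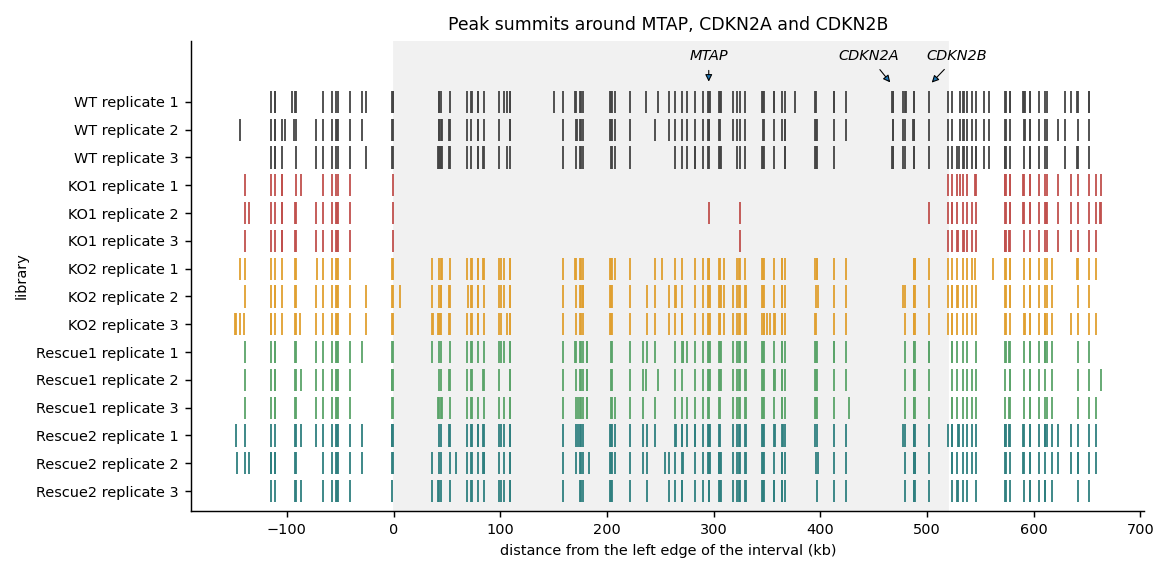
Summits of called peaks in each of the 15 libraries, by distance in kb from the left edge of the interval (shaded); arrows mark the starts of 3 genes. KO1 libraries have 0, 3 and 1 summits inside and 24 to 27 in the 150 kb to the right, whereas every other library has 58 to 72 inside.

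On chromosome 19, lost regions outnumbered gained ones. It had 632 lost and 232 gained regions, 20.2 and 7.42 per 100 shared regions. Chromosome 22 was the only other one with more lost than gained regions, 245 and 213. On the other chromosomes shown, lost regions ranged from 9.59 to 13.4 and gained regions from 9.72 to 25 per 100 shared regions. Of 23 windows of 1 Mb with 10 or more lost and no gained regions, 9 lay on chromosome 19. The 2 most extreme adjoined each other: chr19:50000001-51000000 had 59 lost and 17 shared regions and chr19:51000001-52000000 had 47 and 18. Among the 249 genes of this chromosome named ZNF, a list made after these values were seen, 77 loci held a lost region (30.9%) and 11 a gained one (4.42%), against 32.5% and 31.3% of all coding loci. Of 266 ZNF genes on other chromosomes, 23.3% held a lost and 20.3% a gained region. The other coding genes of the chromosome also held more lost than gained regions: of 1227, 442 held a lost region (36%) and 191 a gained one (15.6%). Without chromosome 19 the gained-to-lost ratio was 1.53, against 1.48 with it.

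Lost regions were found at most loci of epithelial genes. For each of 13 gene lists, the number of loci with a called region is read against 31.3% of all coding loci for gained and 32.5% for lost regions. Of 34 genes of epithelial junctions, polarity and keratins, 23 loci held a lost region (67.6%) and 11 a gained one (32.4%), with 55 lost and 25 gained regions in all. CDH1 had 4 lost and 2 gained regions. The lost region at its start had fold enrichments of 3.07, 3.93 and 3.35 in WT, low values that the first KO2 library alone shared. KRT7, a keratin of simple epithelia, lost a region at its start with 6.73, 7.84 and 8.16 in WT and no peak in KO2 or rescue. CLDN4, a tight junction claudin, lost its start region too, at 4.43, 4.92 and 5.08, but all 3 KO2 libraries had a peak there. ESRP2, a splicing regulator of epithelial cells, lost a low region at its start, at 3.68, 2.93 and 3.34. DLG1, a polarity scaffold, had 5 lost and no gained regions. CGN, the tight junction protein cingulin, had 2 lost regions.

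Renal genes showed the same direction. Of 24 genes of proximal tubule transport and metabolism, 16 loci held a lost region (66.7%) and 8 a gained one (33.3%). MIOX, the inositol oxygenase of the proximal tubule, had 3 lost regions, and SLC4A4, the basolateral bicarbonate cotransporter, had 3 lost and 1 gained. The lost regions of MIOX all lay in its flanks. With equal lists MIOX had 1 lost and 1 gained region, while SLC4A4 kept 3 and 1. LRP2, the endocytic receptor megalin, went the other way with 2 gained, and ALPL, alkaline phosphatase, had 2 gained and 1 lost. Of 20 renal epithelial transcription factors, 13 loci held a lost region (65%) and 6 a gained one (30%). HNF4A and IRX5 had 2 lost regions each, and ESRRG, an orphan nuclear receptor, had 4 gained. Both lost regions of IRX5 lay in its flanks. With equal lists HNF4A had no lost region, IRX5 had 1 lost and ESRRG had 2 gained. The median gene length was 39 kb in the proximal tubule list, 35.5 kb in the transcription factor list and 31.9 kb in the junction list, and coding genes of 10 to 50 kb held a lost region in 26.1% of loci and a gained one in 22.8%. Without the 10 kb flanks, lost regions stood in 11 of 24 proximal tubule genes and 19 of 34 junction genes, against 4553 of 20007 coding genes. Among renal transcription factors they stood in 6 of 20, a share much nearer to that of all coding genes. Per 100 shared regions, epithelial junction genes had 18.6 lost and 8.47 gained regions, proximal tubule genes 15.1 and 8.18, renal transcription factors 12 and 6.33, and all coding loci 10.8 and 12.6.

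In sum over their lists, mesenchymal and progenitor genes held more gained than lost regions. Of 30 mesenchymal and matrix genes, 15 loci held a gained region (50%) and 12 a lost one (40%), with 38 gained and 16 lost regions in all. Their median length was 49.5 kb. Coding genes of 10 to 50 kb held a gained region in 22.8% and a lost one in 26.1% of loci, and those of 50 to 100 kb in 40.6% and 40.8%. CDH11, the mesenchymal cadherin, had 7 gained, no lost and 1 shared region, and KO1 libraries had 16, 13 and 16 peaks there against 2, 1 and 2 in WT. Its tallest gained region, in an intron at chr16:65070861-65071164, had 15.7, 13.8 and 22.1 in KO1, and the region by its start had 6.18, 5.78 and 4.45. All 7 had peaks in every KO2 and rescue library. FBN1, the microfibril protein fibrillin, had 8 gained and 1 lost region. DCN, the proteoglycan decorin, had 3 gained regions, 1 of them at its start with 6.35, 5.34 and 7.26 in KO1, and ACTA2, smooth muscle actin, had 2. At 7 loci of the list lost regions outnumbered gained ones, among them SPARC, a matrix glycoprotein, with 2 lost, and COL5A2, a fibrillar collagen, which lost a region at its start with 3.81, 5 and 4.39 in WT, both named after their values were seen. With equal lists, 17 loci held a gained and 7 a lost region. MMP2 and MMP3, matrix metalloproteinases, gained regions at their starts as well, with 4.31, 3.63 and 2.80 at MMP2 and 4.45, 6.14 and 4.37 at MMP3.

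Of 19 nephron progenitor and stemness genes, 9 loci held a gained region (47.4%) and 2 a lost one (10.5%), with 54 gained and 3 lost regions. Most of the gained regions lay at a few loci. NCAM1, a neural adhesion molecule of the nephrogenic mesenchyme, had 24, and KO1 libraries had 45, 46 and 41 peaks there against 9, 10 and 8 in WT. EYA1, a transcriptional coactivator of nephron progenitors, had 15 gained, no lost and no shared regions, with 27, 25 and 26 peaks in KO1, 2, 1 and 2 in WT and 28, 29 and 31 in KO2. LGR5, a Wnt-pathway receptor of stem cells, had 6 gained regions and PROM1 had 3. Long genes hold more regions of both kinds: coding genes of 100 to 500 kb held a gained region in 65.1% of loci, and NCAM1 and EYA1 are 317 and 395 kb long. Rescue libraries had 34 to 55 peaks at NCAM1 but 5 to 9 at EYA1.

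**Figure D4:**
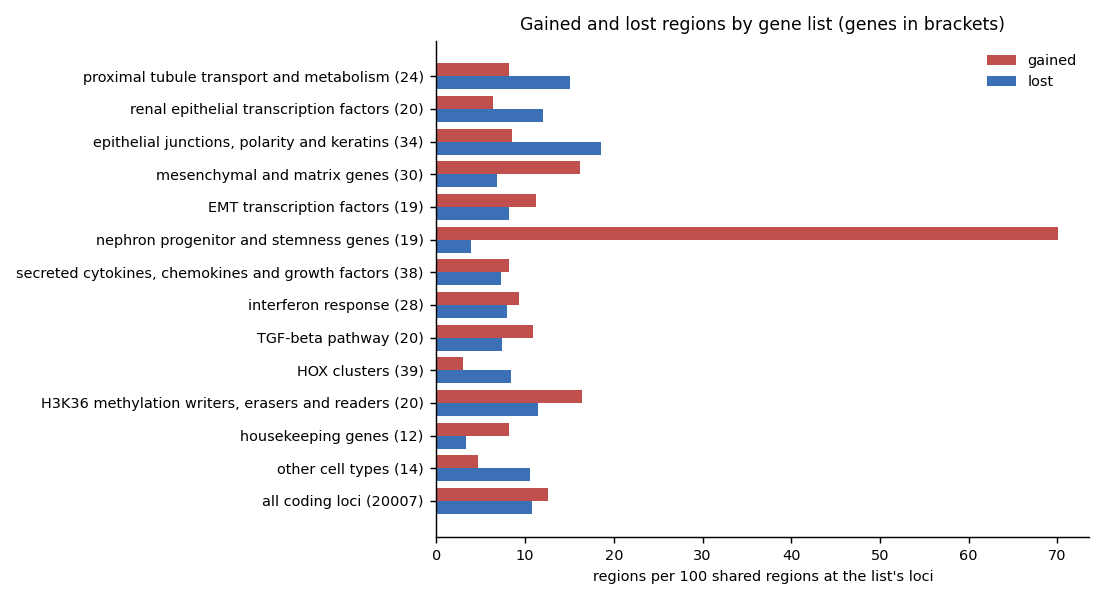
Gained and lost regions per 100 shared regions at the loci (gene with 10 kb on both sides) of each gene list, with the number of genes in brackets and all coding loci at the bottom. Epithelial junction genes had 18.6 lost and 8.47 gained, and the nephron progenitor list had 70.1 gained, of which most lay at NCAM1 and EYA1.

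The transcription factors of epithelial-mesenchymal transition had called regions of both kinds. Of 19, 9 loci held a gained region and 9 a lost one (47.4% each), with 15 gained and 11 lost regions. With equal lists, 8 held a gained and 4 a lost region. The median length of these genes was 9.62 kb. Coding genes under 10 kb held a gained region in 13.3% and a lost one in 16.6% of loci. Per 100 shared regions the list had 11.2 gained and 8.21 lost, against 12.6 and 10.8 at all coding loci. ZEB2, a zinc finger repressor of CDH1, had 3 gained regions, and PRRX1 and POU2F2, which encodes OCT2, had 2 each, while TCF4 had 3 lost. With equal lists, ZEB2 and PRRX1 had 1 gained region each. The directions at POU2F2 and TCF4 were not kept: POU2F2 had none gained and 1 lost, and TCF4 had 3 gained and 1 lost. The gained regions of PRRX1 lay 65142 and 70813 bp from its start, with fold enrichments of 5.01, 5.12 and 4.92 and of 6.68, 4.61 and 4.92. Of 20 TGF-beta pathway genes, 12 loci held a gained and 10 a lost region (60% and 50%). Their median length was 54.4 kb, and coding genes of 50 to 100 kb held a gained region in 40.6% and a lost one in 40.8% of loci. LTBP1, which tethers latent TGF-beta, had 5 gained and 2 lost, SMAD7, an inhibitor of the pathway, 4 and 1, TGFBR3 3 gained and SMAD2 2 gained. With equal lists, LTBP1 kept 5 and 2 and TGFBR3 had 4 and 1, but neither SMAD7 nor SMAD2 had a gained region.

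Secreted and interferon genes held gained and lost regions at similar shares of their loci. Of 38 cytokines, chemokines and growth factors, 15 loci held a gained (39.5%) and 13 a lost region (34.2%). FGF2 had 2 gained regions, and CXCL1 and PDGFC had 2 lost each, with 1 lost at CCL20. Regions at the starts of CXCL8 and VEGFA were gained at low height, 2.26, 2.28 and 2.27 for CXCL8 and 2.69, 2.68 and 2.89 for VEGFA. The region at the start of CCL5 was lost, with 8.79, 7.31 and 7.51 in WT and peaks in all KO2 and rescue libraries. Of 28 interferon response genes, 7 loci held a gained (25%) and 6 a lost region (21.4%), among them TRIM22 with 3 gained, IFIT3 and STAT2 with 2 lost each and BST2 with 1 gained. The median length was 12.5 kb in the secreted list and 25.9 kb in the interferon list. Coding genes of 10 to 50 kb held a gained region in 22.8% and a lost one in 26.1% of loci. Per 100 shared regions, secreted genes had 8.21 gained and 7.25 lost, interferon genes 9.35 and 7.91, and all coding loci 12.6 and 10.8.

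Of 39 HOX genes, 15 loci held a lost (38.5%) and 8 a gained region (20.5%), and neighbouring genes share regions, so these loci are not separate counts. The difference was not kept with equal lists, which gave 8 and 7 loci, or without the flanks, which gave 5 and 5. HOXA3 and HOXB3 had 3 lost regions each, with 1 gained at HOXB3, and HOXA4 and HOXB7 had 2 lost each. Of 20 writers, erasers and readers of H3K36 methylation, 12 loci held a lost (60%) and 11 a gained region (55%), in genes with a median length of 114 kb. KDM4C, a demethylase, had 5 gained and 1 lost region, IWS1, a partner of elongating polymerase, had 4 and 1, DNMT3A, a DNA methyltransferase that reads H3K36 methylation, had 3 lost, and NSD2, which places dimethylation, had 4 lost and 1 gained. With equal lists, KDM4C had 3 gained and 3 lost regions and IWS1 had neither kind. DNMT3A then had 1 lost and NSD2 4 lost, with none gained at either. Of 12 housekeeping genes, 4 loci held a gained (33.3%) and 2 a lost region (16.7%), single regions at B2M, GAPDH and PPIA among them. Of 14 markers of other cell types, 4 loci held a gained and 4 a lost region (28.6% each). NPHS1, the podocyte gene nephrin, had 6 lost regions and lies on chromosome 19, and CD68 and VWF had 1 called region each.

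The heights of the 119348 shared regions were compared after quantile normalization, which gives every library the same distribution and so leaves a balance of rises and falls with no meaning of its own. With limma on the normalized log2 fold enrichment, 10560 regions were higher in KO1 (8.85%) and 10608 lower (8.89%) at a Benjamini-Hochberg adjusted p under 0.05, and 6601 and 6058 of them differed by at least 1.5-fold. Of shared promoter regions, 4.72% were higher and 5.07% lower, against 10% and 10.3% of intronic and 10.3% and 9.61% of intergenic regions. Within 1000 bp of coding starts, 405 of 14966 regions rose and 347 fell.

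The largest rises at coding starts were at CNTN1, IFNA1, LDB2, ENSG00000283228 and CLDN14. At CNTN1, a neural adhesion molecule, normalized fold enrichment was 13.5, 13.9 and 15 in KO1 and 5.18, 4.38 and 5.94 in WT (log2 difference 1.46 ± 0.14 SE, limma adjusted p = 0.000117). At IFNA1, an interferon gene to the left of the chromosome 9 interval, it was 17.5, 17.6 and 15.4 against 6.09, 6.55 and 6.47. LDB2, a LIM-domain cofactor, rose by 1.37 ± 0.14 and CLDN14, a claudin, by 1.28 ± 0.15 on the log2 scale. Among the 5 largest falls were those at ZNF418, INSR, TMEM235 and TBC1D3B. ZNF418, on chromosome 19, had 4.52, 4.84 and 4.30 in KO1 and 18.5, 18.4 and 20.8 in WT (log2 difference -2.08 ± 0.12 SE, limma adjusted p = 4.44e-05). INSR, the insulin receptor, also on chromosome 19, had 3.94, 4.28 and 3.77 against 12.3, 12.2 and 13.4. TBC1D3B has near-identical paralogs, so reads there may not be assigned with certainty.

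The shares of listed promoters that passed the threshold are read against 2.71% higher and 2.32% lower at all coding starts, and each list has few of them. None of 21 shared promoter regions of mesenchymal and matrix genes and none of 26 of H3K36 methylation genes passed the limma threshold. Of 29 at epithelial junction genes, 3 rose, at CLDN14, PKP3 and CGN, and 1 fell, at CRB3, a polarity protein. Of 35 at interferon response genes, 3 rose, at MX2, TRIM22 and BST2, and 4 fell, at IFIT1, IFIT2, IFITM1 and a second region of BST2. Of 40 at secreted factors, IL6, IL11 and GDF15 rose and CXCL5 and FGF1 fell. The IL6 promoter, of a secreted inflammatory cytokine, had 5.02, 4.66 and 4.75 in KO1 and 3.10, 4.04 and 3.71 in WT (log2 difference 0.42 ± 0.13 SE, limma adjusted p = 0.0494). TBX3 alone of the 19 regions at transition factors rose, and CCN2, a matricellular target gene, was the only one of 25 at TGF-beta genes to do so, while 1 of them fell. At proximal tubule genes SLC47A2 and PDZK1 rose, at renal transcription factors IRX5 and 1 region of LHX1 rose and another of LHX1 fell, and at progenitor genes CD34 rose and TCF21 fell. Housekeeping promoters moved too: a region near the ACTB start rose by 1.05 ± 0.11 on the log2 scale, RPLP0 fell by 0.43 and a region near GAPDH fell by 0.49.

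The motifs under the summits separated gained from lost regions. Each motif was sought on both strands in the 200 bp around the summit. The E-box CAGGTG of the SNAI and ZEB repressors stood in 26.3% of lost, 14.8% of shared and 8.80% of gained regions, and in 15.5% of all regions. Other E-box hexamers did not share this order. CAGCTG, bound by basic helix-loop-helix factors, stood in 12.9% of lost and 17.9% of gained regions. Of the 10 hexamers with the pattern CANNTG, a list made after these values were seen, CAGGTG and CACGTG alone were more frequent in lost than in gained regions, and CACGTG differed little, at 3.40% and 2.65%. Outside promoters the E-box CAGGTG stood in 26.2% of lost and 8.71% of gained regions, and among called regions with a mean height rank over 50 it stood in 27.2% and 7.76%.

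Other motifs were more frequent in gained regions. The FOX motif TGTTTAC stood in 6.64% of gained, 2.12% of lost and 3.18% of shared regions. The POU octamer ATGCAAAT, bound by OCT factors, stood in 2.63%, 0.92% and 1.28%, and the C/EBP motif TTGCNNAA in 14.5%, 8.81% and 10.1%. AP-1 motifs stood in 35.3% of gained, 22.5% of lost and 32.7% of shared regions, and RUNX motifs, TGTGGTT, in 11.5%, 7.38% and 8.52%. The TEAD motif GGAATG went the other way, at 15.5% of gained, 20.5% of lost and 16.3% of shared regions, as did the AP-2 motif GCCNNNGGC, at 4.75%, 8.58% and 10.2%. Outside promoters, AP-1 stood in 36.2% of gained, 23.5% of lost and 37.8% of shared regions and AP-2 in 4.35%, 7.71% and 7.2%, so the order of gained and shared regions turned for AP-1 and that of lost and shared regions for AP-2. CTCF motifs were rarer in both called sets, 1.42% of gained and 2.25% of lost regions, than in shared ones, 5.67%. The SOX motif ACAATG stood in 13.6% of gained and 10.1% of lost regions, and the homeobox motif TAATTA of PRRX factors in 4.13% and 4.78%. Base composition differed with them: the median GC content was 45% in gained, 48% in lost and 49.5% in shared regions, and its part in the motif shares was not tested.

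Several of these motifs, the E-box CAGGTG among them, followed the change of height in shared regions, which the gained and lost calls do not contain. The E-box CAGGTG stood in 25% of the shared regions that were lower in KO1, in 8.35% of those that were higher and in 14.4% of the rest. The FOX motif stood in 2.19%, 5.86% and 3.0%, the octamer in 0.971%, 2.08% and 1.22%, and AP-1 in 33%, 42.4% and 31.6%. TEAD motifs stood in 22.6%, 14.8% and 15.8%. For some motifs only the rise was matched: AP-1, RUNX and C/EBP motifs were rarer in lost than in shared regions, but not rarer in lower regions than in the rest. RUNX stood in 9.24% of lower, 11.4% of higher and 8.12% of the rest, and C/EBP in 9.85%, 13.2% and 9.81%. Divided by KO2, lost regions held the E-box in 27.8% of those without a KO2 peak and in 23.4% of those with a peak in all 3 KO2 libraries. A motif match is a match of letters and says nothing of which factor was bound.

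**Figure D5:**
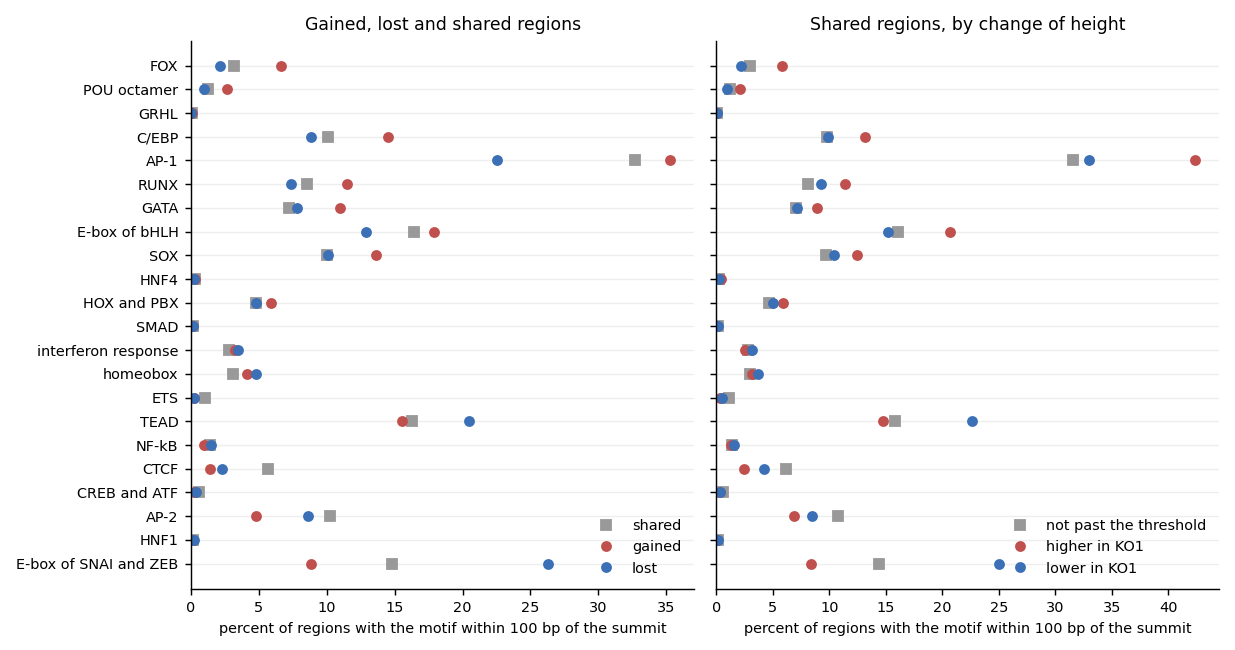
Percent of regions with each motif within 100 bp of the summit, on either strand, for gained, lost and shared regions (left) and for shared regions by their change of height in KO1 (right). The E-box of SNAI and ZEB stands at 26.3% of lost and 8.80% of gained regions on the left and at 25% of lower and 8.35% of higher regions on the right.

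KO2, which the calls did not use, had a peak in most gained regions and in a minority of lost ones. The KO2 libraries had a peak in 77.3%, 76% and 84.4% of the gained regions (mean 79.2% ± 4.48 SD, n = 3) and in 27.7%, 26.2% and 38.8% of the lost regions (30.9% ± 6.85). Shared regions had one in 98.3% ± 0.718. For comparison, regions with a peak in 1 KO1 library and no WT library had a KO2 peak in 25.1% ± 6.64, and regions with a peak in 1 WT library and no KO1 library in 12.5% ± 4.28. The shares varied little by feature, from 78.2% at promoters to 82.1% in exons for gained regions and from 30.2% in introns to 32.4% in exons for lost regions. Rescue libraries had fewer of the gained and more of the lost regions than any KO2 library. Rescue1 had a peak in 49.6% ± 1.38 of gained and 43.3% ± 1.87 of lost regions, and Rescue2 in 55.5% ± 6.76 and 54.7% ± 8.89 (SD, n = 3 each). The lists were of unequal length, 220315 to 254650 peaks in KO2, longer than any KO1 or WT list, and 208067 to 265193 in the rescue libraries. The longest KO2 list gave the highest KO2 shares. With every list, those of KO2 included, cut to 150000 peaks, KO2 had a peak in a mean of 74.8% of gained and 23.1% of lost regions. That cut also changes which regions are called. The part of list length in the rescue shares was not tested.

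With lists cut to the 150000 peaks of highest -log10 q, 209961 regions gave 15136 gained and 12488 lost regions. Of the gained regions of these equal lists, 67.5% were also gained with all peaks, and of the lost regions 49.9%. Of the regions called with all peaks, 47.7% of the gained and 43.1% of the lost were also called with equal lists, so most single calls depended on the lists used. The directions at the epithelial lists stayed, with lost regions at 21 of 34 junction loci, 13 of 24 proximal tubule loci and 12 of 20 renal transcription factor loci, against 5962 of 20007 coding loci. The loci named for most gained or lost regions kept their direction, but at PCSK5 the 18 lost regions became 9, with 2 gained.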

How the data were processed

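ATAC-seq was carried out on 3 libraries per line (WT, KO1, KO2, Rescue1, Rescue2), and 1 peak list per library was deposited. The authors aligned reads to hg38 with BWA and called peaks with MACS2, for which the submitters' processing notes name versions 0.7.17 and 2.2.7.1. DiffBind 2.14.0 is also named there, and its results are not used here. Whether reads were shifted for the Tn5 offset is not given in the sources used here. The deposited columns hold a fold enrichment of the summit over background (a ratio), a -log10 p-value, a -log10 q-value and a score, which is a rescaled -log10 q-value. Every list ends near a q-value of 0.05, so a missing peak means a signal under that threshold, not no signal.

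From these lists, peaks of the main chromosomes were merged where they shared 1 bp or more, with Python 3.11.15, numpy 2.4.6 and pandas 2.3.3. Features and loci came from GENCODE 44, sequence from hg38. Heights of shared regions were compared with limma 3.58.1 (trend, R 4.3.3) after quantile normalization of log2 fold enrichment, and numbers and median widths of peaks with an exact permutation test. The background level of a library, and from it the pileup of each peak, was solved from the fold enrichment and -log10 p-value of its peaks in the deposited lists. Gained and lost calls carry no test, since Fisher's exact test on 3 against 3 libraries cannot go below p = 0.1. Scripts were tested on simulated data. Genes were named by fixed rules: the 10 gained and 10 lost promoters and the 5 regions of highest mean rank per direction, the 5 loci of most gained and most lost regions, up to 4 genes per list, the 5 largest height changes per direction at coding starts, and SETD2. A few genes and sequences that these rules select are not reported here. Windows printed for their E-box or FOX motif, promoters of list genes and the ZNF and CANNTG lists were chosen after values were seen. The members, gene lists and motifs were chosen with earlier results of these data known. Alternatives were equal lists, a stricter q-value, a larger overlap, a looser call rule, other windows and normalizations, a replicate block and the omission of each library.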

Additional observations from a re-analysis of the deposited data

How the results depend on the processing

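Gained regions outnumbered lost ones under every alternative tried, but the ratio moved: it was 1.48 as reported, 1.21 with equal lists of 150000 peaks, 1.44 with a -log10 q of at least 3, 1.34 with peaks in 2 of 3 libraries against none, 1.53 without chromosome 19 and 1.19 to 1.69 when each library was left out in turn, the lowest without the second WT library. With 2 of 3 libraries against none, 34995 regions were gained and 26048 lost, 9.52% of the gained regions lay in promoters and 68% had a peak in KO2. Leaving out a library gave 23190 to 27511 gained and 16286 to 19415 lost regions, 9.08% to 9.83% and 13.2% to 13.9% of them in promoters, and KO2 peaks in 73.3% to 80.4% and 28.1% to 37% of them. Equal lists gave KO2 peaks in 23.1% of lost regions. A promoter window of 500 bp put 5.39% of gained and 8.54% of lost regions in promoters, one of 2500 bp 17.1% and 23.5%, and leaving out chromosome 19 gave 12.4% for lost regions. For heights, 16852 regions were higher and 17235 lower on the solved pileup, 6817 and 6969 among the 150000 highest peaks, and 8136 to 8718 and 6927 to 9255 with a library left out, fewest lower ones without the first WT library. The cause of these moves was not tested. The gained-to-lost ratio of motif shares crossed 1 for CREB and ATF (1.09), interferon response (1.03) and GRHL (0.353) with equal lists and for SMAD (1.69) with a window of 100 bp, all motifs found in few regions or with a ratio near 1. Omission of chromosome 19 and of the chromosome 9 interval was chosen after seeing the data.

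Libraries of the same number did not deviate together in the normalized heights of shared regions (r = -0.00917, 0.0122 and -0.0234). Quantile normalization removes effects on a whole library, so these values cannot show whether libraries of the same number were prepared together. With the number as a replicate block, 10135 regions were higher and 10236 lower, and the difference in peak number stayed at 8942 with p = 0.5 by an exact paired permutation test. The lists hold called peaks only, so a region under the threshold in a library cannot be told from one without signal, and precision per region cannot be given without read counts.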
